A study of Mus musculus with 11 samples.

Results

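HaCa4 carcinoma cells were profiled by bulk RNA sequencing when grown alone and after contact with lymphatic endothelial cells (LECs), and all 290 genes with values for HaCa4 libraries were followed here, out of 458 genes with values for either cell line. HaCa4 is a line from mouse skin squamous cell carcinoma that carries an oncogenic H-Ras mutation. HaCa4 control (n = 2) was grown alone, and HaCa4-sorted (n = 3) was isolated by FACS after 24 h of culture together with LECs. The partner cells, labelled imLEC, are mouse dermal LECs kept in growth by a temperature-sensitive SV40 large T antigen under the H-2Kb promoter, with interferon-γ in their growth medium and without it under the conditions used for functional assays. These 5 libraries are part of 11, the other 6 being LEC control (n = 3) and LEC-sorted (n = 3). Cancer cells had been loaded with the dye CFSE and LECs were stained for CD31 (*Pecam1*), and dead cells and doublets were gated out. The LEC line was used as a pair of clones, and which one each library met is not given in the sources used here. The labels give a sort for the co-cultured cells only, so that co-culture and the staining and sorting cannot be told apart. No source used here says that the replicates were separate cultures, and the p-values measure only the spread between these libraries, which may be technical.

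Squamous carcinoma cells keep keratins, desmosomes, and integrins of the epidermis and secrete chemokines and matrix proteases that act on neighbouring vessels. Endothelial cells are marked by junction and surface proteins such as CD31, VE-cadherin, and endomucin, and lymphatic vessels in addition by LYVE-1 and VEGF receptor 3. Interferons act through a complex of STAT proteins and IRF9 that binds the interferon-stimulated response element (ISRE) in promoters of antiviral genes. Bone morphogenetic proteins (BMPs) and TGF-β act through SMAD factors, and *Id1*, *Id2*, and *Id3* are among the best known BMP targets.

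The HaCa4-sorted libraries held more RNA of interferon-stimulated genes such as *Isg15* and *Usp18* and of the BMP targets *Id1*, *Id2*, and *Id3*, and less of the cytokine gene *Tslp*, the keratin gene *Krt6b*, and the collagenase gene *Mmp13*. They also held transcripts of endothelial genes such as *Emcn*, which was listed at 0 in HaCa4 control, and bulk values do not tell which cells these transcripts were in. The values are in TPM, transcript abundance on a scale where all libraries have an equal total, so the depth of the libraries is unknown. The 290 genes held between 1.84% and 2.39% of the TPM of a library. How they were selected is not given in the sources used here. In 183 of them every HaCa4-sorted library lay above both controls (63.1% of 290), in 97 every one lay below (33.4%), and in 10 the groups overlapped. The list was therefore already split by this contrast. By mean log2(TPM + 1), 192 genes were higher and 98 were lower in HaCa4-sorted, and the median difference was 0.74 on the log2 scale. The directions of the members of a gene list are given below as descriptions, beside these counts over all 290 genes.

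Log2(TPM + 1) of the 5 libraries was fitted with limma, and a gene was called where the groups differed by 0.5 or more on the log2 scale in either direction with a Benjamini-Hochberg adjusted p of 0.05 or less over the 290 genes. By this test 87 genes were called (30.0%), 46 of them higher (15.9%) and 41 lower (14.1%). Of the 46, 42 had at least 0.5 TPM in a control, and 4 were below that level in both. The calls rest on few libraries, since 194 genes were called without HaCa4-sorted replicate 1, 6 without HaCa4 control replicate 1, and 0 without HaCa4 control replicate 2 or without HaCa4-sorted replicate 3, although 70 and 126 genes had an unadjusted p under 0.05 in those 2 fits. Without the mean-variance trend of limma 0 genes were called, with 161 at an unadjusted p under 0.05, and that setting leaves the log2 differences as they are. After scaling of the libraries to the same median, 46 genes were called higher and 94 lower, and the median difference went from 0.74 to 0.24, so that smaller rises depend on the scaling. This median was taken over the 290 selected genes, which give no unbiased scaling factor. It moved abundant genes downward, such as *Ctsl* from -0.36 to -1.23 on the log2 scale, and changes of sign under it carry that limit. Genes with near-identical copies, such as *Ifit3* and *Ifit3b*, *Tgtp1* and *Tgtp2*, *Tubb2a* and *Tubb2b*, *Ifi203* and *Ifi211*, and the *Oas* and *Gbp* families, may share reads, and their values are uncertain.

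**Figure D1:**
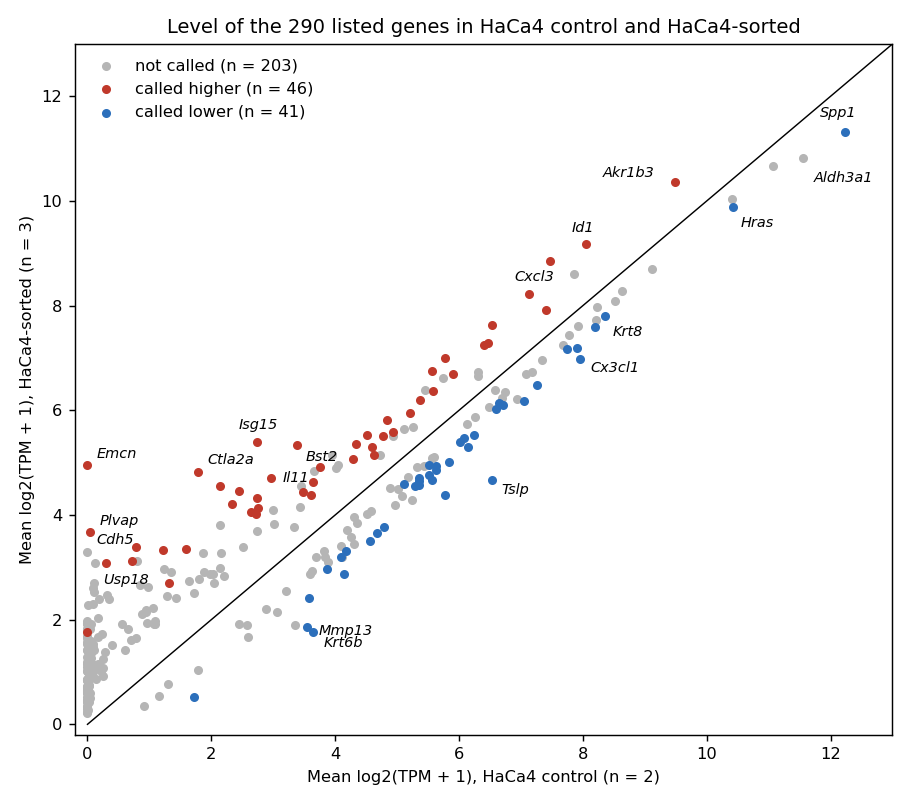
Mean log2(TPM + 1) of each of the 290 genes in HaCa4 control (horizontal, n = 2) and HaCa4-sorted (vertical, n = 3), with genes called higher in red, called lower in blue, and the line of equal level in black. The 98 genes under 0.5 TPM in both controls stand along the left edge, and 4 of them, *Emcn*, *Plvap*, *Usp18*, and *Gm14308*, were called.

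The 3 sorted libraries did not resemble each other in how far the higher genes departed from the controls. Of the 192 higher genes, 103 followed one order, with sorted replicate 2 highest, replicate 3 next, and replicate 1 lowest, and the rest were spread over the other orders. This order held in 86 of the 98 genes that were under 0.5 TPM in both controls and in 17 of the 94 higher genes with a level above that. The 98 lower genes showed no such leaning, with between 12 and 23 genes in each of the 6 orders. The contrast between the groups does not fix the order within HaCa4-sorted. Genes near 0 in both controls, however, could separate from them only through their sorted values. These counts are therefore a description and are not independent of how the list was made.

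Among the 98 genes near 0 in the controls, the TPM of sorted replicate 2 was 11.7 times that of replicate 1 at the median (quartiles 6.98 and 19.2) and 2.06 times that of replicate 3 (quartiles 1.54 and 2.57). Interferon-stimulated genes stood elsewhere, with a median ratio of 0.97 between replicates 2 and 1 and of 0.37 between replicates 2 and 3. *Id1*, *Id2*, and *Id3* were lowest in replicate 2, which held 0.58 to 0.61 of the TPM of replicate 1. The leading library thus differed between gene lists, which the plot of ratios between sorted libraries shows.

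**Figure D2:**
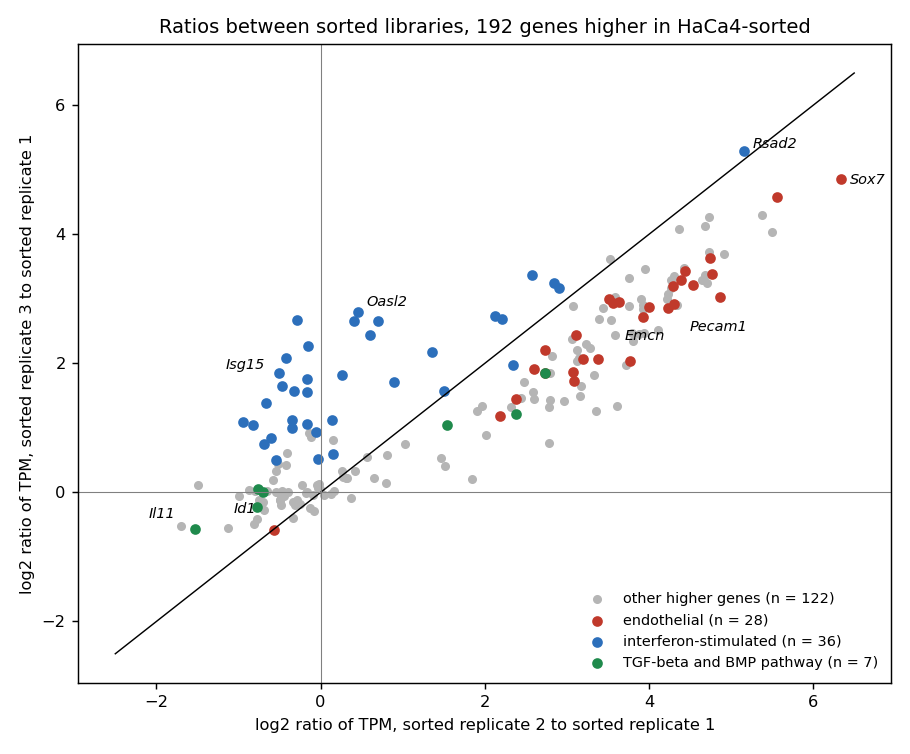
Log2 ratio of TPM in sorted replicate 2 (horizontal) and in sorted replicate 3 (vertical) to sorted replicate 1, one point for each of the 192 genes higher in HaCa4-sorted, coloured by gene list, with *Eng*, which is on the endothelial and the BMP list, in the colour of the latter. Endothelial genes lie below the line of equal ratios with a median replicate 2 to replicate 1 ratio of 15.6 for the 24 that were near 0 in the controls, and 35 of the 36 interferon-stimulated genes lie above it, highest in replicate 3.

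Genes that mark endothelial cells were highest in sorted replicate 2. Of a list of 59 endothelial genes 29 were among the 290, and 28 of these were higher and 1, *Palmd*, was lower in HaCa4-sorted. Their summed level was 25.3 and 21.8 TPM in HaCa4 control against 54.3, 390.2, and 185 TPM in sorted replicates 1 to 3. Sorted replicate 2 was highest and replicate 1 lowest in 27 of the 29, and 24 were under 0.5 TPM in both controls. By limma 4 were called higher (13.8%, against 15.9% of all genes) and 1 lower, a share near that of all genes. The count was 28 without sorted replicate 1, 3 without replicate 2, and 0 without replicate 3 or either control. Its median log2 fold change was 1.40, beside 0.74 over all genes.

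*Emcn*, which encodes the endothelial surface sialomucin endomucin, lies on chromosome 3 from 137341062 to 137431069 of GRCm38.p6. Both controls were listed at 0, and sorted replicates 1 to 3 held 6.24, 95.1, and 41.3 TPM (limma adjusted p = 0.0308, called). *Cdh5* (VE-cadherin, the adhesion protein of endothelial junctions) was likewise listed at 0 in HaCa4 control and reached 1.11, 29.7, and 13.8 TPM in sorted replicates 1 to 3 (limma adjusted p = 0.0543, not called). Both genes were lowest in replicate 1 and far higher in replicate 2, without overlap with the controls. *Ctla2a*, a cysteine protease inhibitor gene abundant in endothelium, was present in HaCa4 control at 2.75 and 2.17 TPM and was called at 8.62, 72.6, and 31.3 TPM. *Lyve1*, the hyaluronan receptor of lymphatic vessels, was at 0 and 0.14 TPM in HaCa4 control against 0.97, 16.7, and 5.57 TPM in HaCa4-sorted (limma adjusted p = 0.0613). Each of these genes was highest in replicate 2. *Sox18*, a transcription factor of lymphatic development, was at 0 and 0.08 TPM against 0.15, 4.36, and 1.23 TPM, *Thy1* was listed at 0 in HaCa4 control and at 0.34, 4.58, and 2.53 TPM after co-culture, and *Flt4* (VEGF receptor 3) shared that order. Of the lymphatic list 5 of 24 genes were present and 0 were called, and 3 of the 5 had an unadjusted p under 0.05. *Nr2f2* (COUP-TFII), the member that HaCa4 controls already held, was at 38.9 and 35.6 TPM against 50.3, 51.7, and 48.9 TPM, with a log2 fold change of 0.43 that fell short of 0.5 and turned to -0.42 under the same-median scaling.

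In bulk RNA a larger share of cells of a type and more RNA per cell cannot be told apart. Of 24 defining markers of endothelium 16 were among the 290, 6 of them listed at 0 in both controls. Their sum was 4.6 and 3.25 TPM in HaCa4 control against 18.4, 258, and 115 TPM in sorted replicates 1 to 3. A second measure came from genes with values in both cell lines that were under 2 TPM in both HaCa4 controls. For these the level in a HaCa4-sorted library above the control mean was taken as a share of the mean in LEC-sorted, with TPM of the cell lines from separate tables set side by side. In sorted replicates 1 to 3 this share was 0.124, 1.83, and 1.13% for *Kdr*, 0.232, 1.77, and 1.08% for *Gas6*, and 0.207, 1.8, and 0.811% for *Mest*. It was 0.0746, 1.91, and 0.771% for *Sfrp1* and 1.17, 1.91, and 1.88% for *Timp3*. In replicate 2 these 5 genes, whose LEC-sorted means lay between 40.2 and 713 TPM, thus all stood at 1.77% to 1.91% of the LEC level. In sorted replicates 1 to 3 *Adm* was at 0.643, 2.2, and 0.918%, and *Ceacam1* stood apart at 126, 56.7, and 129%. The part that RNA of LECs had in the higher genes was not tested beyond these values.

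**Figure D3:**
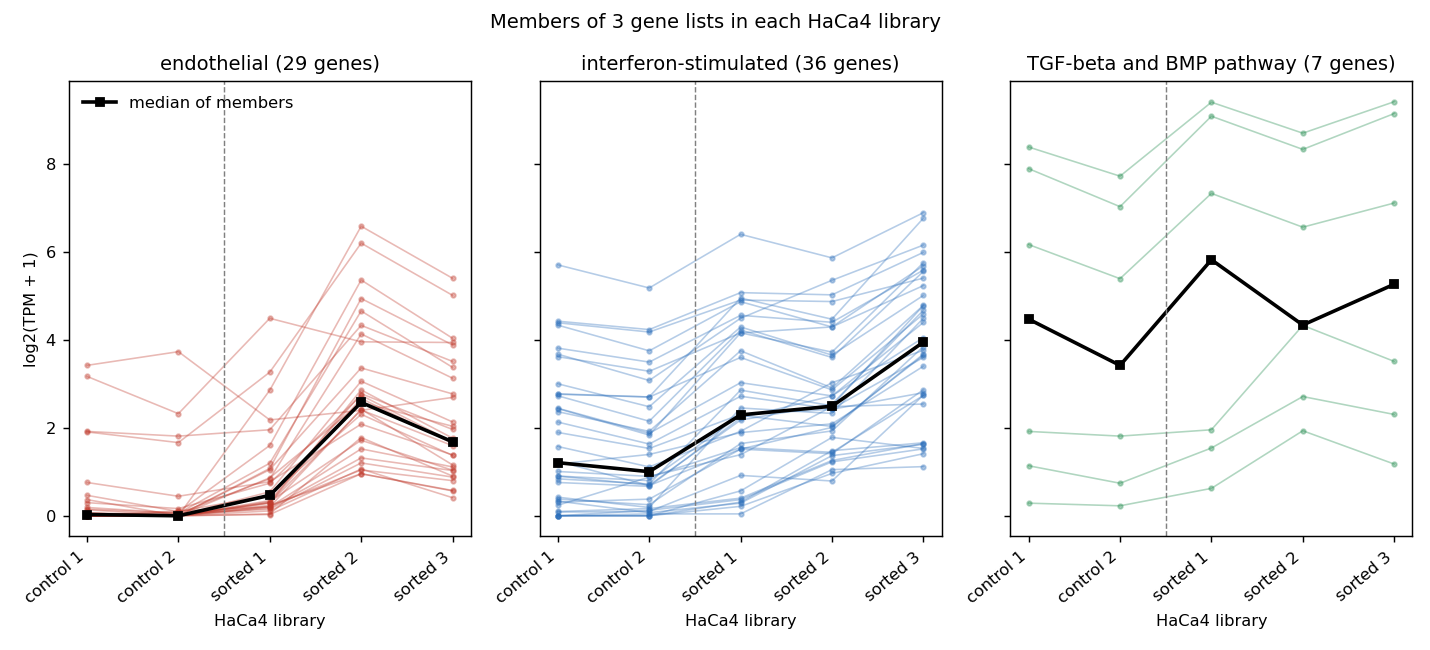
Log2(TPM + 1) of each member of the endothelial, interferon-stimulated, and TGF-beta and BMP lists in the 2 HaCa4 control and 3 HaCa4-sorted libraries, with thin lines for genes and a thick black line for the median of the members. The endothelial median peaks in sorted replicate 2, the interferon median in sorted replicate 3, and the TGF-beta and BMP median is higher in sorted replicates 1 and 3 than in replicate 2.

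The interferon-stimulated genes of the list used here were higher in HaCa4-sorted and led by replicate 3. Of the 111 genes on this list 36 were among the 290, and all 36 were higher in HaCa4-sorted. The list does not hold every gene of the class. *Plscr1*, which interferon also induces, is not on it and went the other way. It was at 73.7 and 77.1 TPM in HaCa4 control against 62.3, 52.3, and 58.8 TPM in HaCa4-sorted (limma adjusted p = 0.0542, not called). In 33 of the 36 every sorted library lay above both controls, against 63.1% of all genes and 183 of the 192 higher genes. This separation thus does not set the list apart from the other higher genes. Limma called 10 of the 36 higher (27.8%, against 15.9% of all genes) and 0 lower. Of the 192 higher genes 46 were called, and of the 94 with at least 0.5 TPM in a control 42 were (44.7%). The calls thus do not set the list apart from the other higher genes. Of the 36, 21 had an unadjusted p under 0.05, as did 177 of all 290 genes. The summed level was 201 and 149 TPM in HaCa4 control against 397, 355, and 934 TPM in sorted replicates 1 to 3. Sorted replicate 3 was highest in 35 of the 36, *Ifi44* being the exception. The median log2 fold change was 1.19, and it was 0.86 without sorted replicate 3 and 1.37 without sorted replicate 2. In the same 2 fits 0 and 16 of the genes were called, 28 were called without sorted replicate 1, and 0 without either control. The 36 genes are not among the 23 with values in both cell lines, so their level in LEC libraries could not be set beside these values. The part that RNA of LECs had in their rise was not tested.

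*Isg15*, a ubiquitin-like protein that is coupled to other proteins during antiviral defence, was at 5.84 and 5.51 TPM in HaCa4 control against 29.95, 21.2, and 108 TPM in HaCa4-sorted, a log2 difference of 2.66 (SE 0.65, limma adjusted p = 0.0366). *Usp18*, the protease that removes ISG15 and restrains interferon receptor signalling, rose to 4.47, 4.02, and 21.5 TPM after co-culture against 0.34 and 0.14 TPM in HaCa4 control, a log2 difference of 2.78 (SE 0.73, limma adjusted p = 0.0386). Each sorted library was above both controls in the 2 genes, and replicate 3 held several times the level of the others. *Ifit1*, which binds foreign RNA, rose from 0.79 and 0.65 TPM to 6.25, 4.66, and 26.5 TPM (limma adjusted p = 0.0413). *Apol9a* rose from 4.42 and 2.57 TPM to 16.9, 12.2, and 52.98 TPM (limma adjusted p = 0.0386). *Bst2* (tetherin, which holds budding viruses at the cell surface) rose from 11.8 and 7.44 TPM to 21.5, 39.9, and 70.3 TPM (limma adjusted p = 0.0366). In *Bst2* and in *Rtp4* replicate 2 lay between the other two, whereas in *Isg15*, *Usp18*, *Ifit1*, and *Apol9a* it was the lowest. *Rtp4* rose from 0.69 and 0.59 TPM to 3.68, 5.61, and 20.1 TPM (limma adjusted p = 0.0424).

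Of the factors that carry the interferon signal *Irf7* and *Irf9* were called and *Stat2* was not. *Irf7*, which amplifies the type I response, rose from 5.63 and 3.44 TPM to 17.7, 11.1, and 46.04 TPM (limma adjusted p = 0.0424), and *Irf9*, the DNA-binding part of the complex it forms with STAT2, rose from 7.01 and 4.58 TPM to 18.6, 11.6, and 31.3 TPM (limma adjusted p = 0.0405). *Stat2* was at 4.45 and 2.67 TPM against 7.15, 5.62, and 15.6 TPM (limma adjusted p = 0.0925). In these 3 genes the libraries did not overlap and replicate 3 was the highest. Of the most abundant members, *Ifi27* was at 51.2 and 35.3 TPM against 83.5, 57.3, and 118 TPM (limma adjusted p = 0.0548), and *Ifi211*, a nucleic acid sensor of the HIN-200 family, rose from 19.96 and 17.1 TPM to 28.98, 28.3, and 41.4 TPM (limma adjusted p = 0.0413). Under the same-median scaling the log2 difference of *Ifi211* turned to -0.06.

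Promoter sequences were examined for the ISRE core, a pair of GAAA half-sites spaced by 2 bases, on both strands of RefSeq promoters of GRCm38.p6, from 250 bases before to 50 after each start. Promoters were matched for 203 of the 290 genes. The core was present in 19 of the 27 interferon-stimulated genes with a promoter (70.4%), in 0 of 14 endothelial genes, and in 3.99% of the 27025 genes of the table. Over all 203 matched genes it was present in 27 (13.3%), and over the 128 matched higher genes in 22 (17.2%). Promoters of 4 of the genes described above are shown because they hold the core close to the start. Each is given for the 160 bases before the start, 5′ to 3′ in the direction of transcription, with the core in capitals, and overlapping cores run together.
Isg15 promoter, chr4:156200819-156200978, minus strand: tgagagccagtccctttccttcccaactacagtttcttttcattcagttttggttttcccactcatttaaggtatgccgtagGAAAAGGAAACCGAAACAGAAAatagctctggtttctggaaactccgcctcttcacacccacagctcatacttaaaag
Ifit1 promoter, chr19:34640729-34640888, plus strand: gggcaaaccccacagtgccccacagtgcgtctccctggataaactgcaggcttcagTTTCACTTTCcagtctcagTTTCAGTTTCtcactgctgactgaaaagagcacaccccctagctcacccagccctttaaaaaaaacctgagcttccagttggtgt
Ifit3 promoter, chr19:34583369-34583528, plus strand: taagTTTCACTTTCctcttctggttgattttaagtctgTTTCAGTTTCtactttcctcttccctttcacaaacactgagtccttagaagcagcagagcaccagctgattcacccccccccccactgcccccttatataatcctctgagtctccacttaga
Apol9a promoter, chr15:77411081-77411240, minus strand: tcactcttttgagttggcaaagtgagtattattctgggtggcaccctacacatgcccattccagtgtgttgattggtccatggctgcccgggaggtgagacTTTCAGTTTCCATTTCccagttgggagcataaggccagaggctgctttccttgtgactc
*Isg15* held 3 overlapping cores, the first beginning 78 bases before the start, and *Ifit1* held 2, at 104 and 85 bases. *Ifit3*, which was at 0.24 and 0.30 TPM in HaCa4 control against 1.86, 3.03, and 11.8 TPM in HaCa4-sorted (limma adjusted p = 0.0548), held 2 cores at 156 and 122 bases. The table takes for *Ifit3* a transcript start that lies inside the span of the gene, so this stretch is within the listed gene. *Apol9a* held 2 overlapping cores beginning at 59 and 53 bases. No core was found in this window for *Irf7* or *Irf9*, and a match of letters is a description of the sequence, not a tested site.

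The Id genes of the TGF-β and BMP pathway rose in all sorted libraries and stood lowest in replicate 2. Of 48 genes 7 were listed, all 7 were higher, and 3 were called higher (42.9%, against 15.9% of all genes), with a median log2 fold change of 1.22. Among the 94 higher genes with at least 0.5 TPM in a control 42 were called (44.7%), so the calls do not set this list apart. Its 3 called genes were the Id genes, which encode inhibitors of basic helix-loop-helix factors. *Id1* was at 334 and 210.4 TPM in HaCa4 control and rose to 677, 415, and 683 TPM, a log2 difference of 1.12 (SE 0.29, limma adjusted p = 0.0386). It lies on chromosome 2 from 152736251 to 152737410 (GRCm38.p6). *Id2* rose from 70.9 and 41 TPM to 160.1, 93.6, and 137 TPM (limma adjusted p = 0.0366), and *Id3* from 237 and 129.7 TPM to 543, 321, and 566 TPM (limma adjusted p = 0.0366). All 3 were abundant in both groups, and replicates 1 and 3 stood well above replicate 2. *Inhba*, which encodes the subunit of activin A, was at 21.2 and 9.70 TPM against 55.6, 19.2, and 37.5 TPM and overlapped between the groups. The ligand *Bmp4* and the endothelial receptors *Eng* and *Acvrl1* followed the other order. *Bmp4* was at 1.20 and 0.67 TPM against 1.91, 5.55, and 3.94 TPM, *Eng* at 2.78 and 2.51 TPM against 2.88, 19.1, and 10.4 TPM, and *Acvrl1* at 0.22 and 0.17 TPM against 0.54, 2.82, and 1.26 TPM. None of these 3 was called, and each was highest in replicate 2. Under the same-median scaling 0 of the 7 genes were called and their median was 0.53.

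Cytokine and chemokine genes moved in both directions, with 2 of 8 listed genes called higher (*Cxcl3* and *Il11*) and 3 called lower (*Tslp*, *Cx3cl1*, and *Spp1*), beside 15.9% and 14.1% of all genes. *Tslp*, an epithelial cytokine that acts on dendritic cells, fell from 85.2 and 98.5 TPM to 29.1, 19.6, and 25.8 TPM, and with an adjusted p of 0.0165 in limma it had the lowest p of the 290 genes. *Cx3cl1* (fractalkine, a membrane-bound chemokine that also mediates adhesion) fell from 218 and 277 TPM to 111, 125, and 142 TPM (limma adjusted p = 0.0308). For both genes the 3 sorted libraries lay close together and well below the controls. *Spp1* (osteopontin) fell by 0.91 on the log2 scale (limma adjusted p = 0.0405) and remained the most abundant of the 290 transcripts in sorted replicates 1 and 3, while *Aldh3a1* was the highest in replicate 2.

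*Il11*, an IL-6 family cytokine induced by TGF-β, rose from 8.49 and 5.46 TPM to 41.7, 12.8, and 29.2 TPM (limma adjusted p = 0.0418), with replicates 1 and 3 far above replicate 2. *Lif*, of the same family, was at 42.9 and 24.9 TPM in HaCa4 control against 22.6, 18.5, and 18.1 TPM in HaCa4-sorted (limma adjusted p = 0.0629, not called). The named IL-6 family genes thus did not share a direction, with *Il11* above the controls in every sorted library and *Lif* below them. *Cxcl3*, a neutrophil-attracting chemokine, rose from 183 and 105 TPM to 291, 318, and 287 TPM (limma adjusted p = 0.0308), and its 3 sorted libraries were nearly equal, unlike those of *Il11*. Its promoter held the single NF-κB site (GGGA and TTTCC spaced by 1 base, either strand) found among the 203 promoters, a sequence present in 0.466% of the table. *Cxcl12*, a chemokine of stroma and vessels, was near 0 in HaCa4 control and reached 0.23, 2.41, and 1.48 TPM after co-culture (limma adjusted p = 0.115).

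Of 14 listed adhesion receptor genes 3 were called higher (21.4%, against 15.9% of all genes), 2 were called lower (14.3%, against 14.1%), and 9 were not called. *Emcn*, described above, *Selp*, and *Ceacam1* were the 3 called higher. *Selp* (P-selectin) was at 8 and 4 TPM against 21.5, 14.5, and 14.4 TPM, and it was the only one of the 29 endothelial genes with its highest value in sorted replicate 1. *Ceacam1*, a homophilic adhesion molecule of epithelium and endothelium, rose from 1.63 and 1.37 TPM to 6.54, 3.77, and 6.67 TPM (limma adjusted p = 0.0458), with replicates 1 and 3 above replicate 2. *Itga2* (the integrin α2 chain of the collagen receptor) fell from 42.9 and 37.1 TPM to 26.9, 20.5, and 25.7 TPM (limma adjusted p = 0.0386). *Jam2*, a tight junction protein that is also known from endothelium, fell from 46.7 and 46.1 TPM to 23.4, 21.9, and 28.4 TPM (limma adjusted p = 0.0308), the controls being nearly equal. In the 3 genes *Ceacam1*, *Itga2*, and *Jam2* the groups did not overlap. *Icam2* was listed at 0 in HaCa4 control and reached 0.82, 4.97, and 3.10 TPM (limma adjusted p = 0.0505), and *Icam1* and *Pecam1* shared its order of the sorted libraries.

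The matrix genes held 12 of 92, of which 11 were higher and 1, *Spp1*, was lower. Of the 12, 3 were called higher (25%, against 15.9% of all genes and 46 of the 192 higher genes) and 1 lower. *Tinagl1*, a basement membrane protein, rose from 60.4 and 57.3 TPM to 90.2, 113, and 106 TPM (limma adjusted p = 0.0308). *Wisp2* (CCN5), a matricellular protein of the CCN family, rose from 7.36 and 4.26 TPM to 16.7, 12.6, and 16.8 TPM (limma adjusted p = 0.0366). *Lgals3bp*, a secreted galectin ligand that is also induced by interferon, rose from 20.5 and 17.8 TPM to 32.7, 31.6, and 62.6 TPM (limma adjusted p = 0.0475), highest in replicate 3. No library of these 3 genes overlapped between the groups. Of the related CCN genes, *Cyr61* was at 274 and 197 TPM against 472, 291, and 426 TPM, and *Wisp1* at 11.9 and 7.96 TPM against 19.3, 13.8, and 17.8 TPM, and neither was called. Replicate 2 was the lowest sorted library for the 3 CCN genes. The other 6 matrix genes, *Nid1*, *Srpx2*, *Igfbp4*, *Bgn*, *Lama4*, and *Loxl2*, were under 0.5 TPM in both controls and not called. *Nid1* (nidogen 1, a linker of basement membranes) was the highest of them, at 1, 13.9, and 5.55 TPM in sorted replicates 1 to 3. Under the same-median scaling, the log2 differences of *Tinagl1*, *Cyr61*, and *Wisp1* turned to -0.07, -0.125, and -0.07.

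Of the listed matrix protease genes *Mmp13* was called lower, and the others had lower values without a call. The 3 sorted libraries lay below both controls for all 5 listed matrix metalloproteases and for the cathepsin gene *Ctsl*. This separation was found in 33.4% of all genes and in 97 of the 98 lower genes. The inhibitors *Timp3* and *Tfpi2* were higher. Of the 9 listed genes of proteases and their inhibitors 1 was called higher, 1 (*Mmp13*) was called lower, each 11.1% against 15.9% and 14.1% of all genes, and 7 had an unadjusted p under 0.05, as did 177 of all 290. The calls thus do not set the list apart. *Mmp13* (collagenase 3) fell from 17.8 and 6.30 TPM to 3.70, 2.42, and 1.94 TPM (limma adjusted p = 0.0472). *Mmp10* (stromelysin 2) was at 12.2 and 6.84 TPM against 4.98, 2.26, and 1.63 TPM (limma adjusted p = 0.0563), and *Mmp3* (stromelysin 1) at 17.9 and 14.95 TPM against 8.58, 11.5, and 5.40 TPM (limma adjusted p = 0.0633). In TPM the controls of *Mmp13* and *Mmp10* differed by more than the sorted libraries did, control 1 being the higher. On the log2 scale this held for *Mmp13* but not for *Mmp10*. *Mmp1b* was at 4.65 and 5.50 TPM against 1.82, 2.79, and 1.96 TPM, and *Mmp9* (gelatinase B) was under 1 TPM throughout. Both of these inhibitors lay above both controls in every sorted library. *Timp3*, a tissue inhibitor of metalloproteases, was at 0.31 and 0.33 TPM against 1.44, 2.14, and 2.11 TPM (limma adjusted p = 0.0542), and *Tfpi2* was listed at 0 in HaCa4 control and reached 0.32, 4.48, and 1.62 TPM (limma adjusted p = 0.0925). *Ctsl* was at 1249 and 1475 TPM against 1089.5, 1078, and 1004 TPM (limma adjusted p = 0.0613).

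*Mmp13*, *Mmp3*, *Mmp10*, and *Mmp1b* lie on the same chromosome, and their promoters are shown because each holds an AP-1 site (TGANTCA, both strands) before the start. Of the metalloproteases 4 had a promoter in the table and all 4 held the site, against 8.97% of the table, and it was present in 31 of the 203 matched promoters (15.3%). The same 160 bases are given, with the site in capitals.
Mmp13 promoter, chr9:7272354-7272513, plus strand: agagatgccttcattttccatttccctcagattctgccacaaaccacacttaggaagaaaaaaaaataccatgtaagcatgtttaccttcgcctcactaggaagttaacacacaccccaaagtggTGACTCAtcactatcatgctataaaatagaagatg
Mmp3 promoter, chr9:7445662-7445821, plus strand: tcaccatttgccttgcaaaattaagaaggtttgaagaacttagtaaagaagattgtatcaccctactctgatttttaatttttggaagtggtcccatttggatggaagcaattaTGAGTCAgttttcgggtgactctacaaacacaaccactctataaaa
Mmp10 promoter, chr9:7502182-7502341, plus strand: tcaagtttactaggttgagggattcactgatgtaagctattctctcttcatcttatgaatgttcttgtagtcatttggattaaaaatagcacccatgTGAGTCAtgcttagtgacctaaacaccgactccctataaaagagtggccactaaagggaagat
Mmp1b promoter, chr9:7388027-7388186, minus strand: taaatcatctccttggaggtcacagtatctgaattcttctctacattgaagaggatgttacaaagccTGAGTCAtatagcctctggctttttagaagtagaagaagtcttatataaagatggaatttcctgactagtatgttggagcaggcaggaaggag
The site began 35 bases before the start in *Mmp13*, 46 in *Mmp3*, 63 in *Mmp10*, and 93 in *Mmp1b*. *Fosl2* (Fra-2), the AP-1 subunit among the 290, was at 35.5 and 24.8 TPM against 52.4, 37.7, and 45.7 TPM (limma adjusted p = 0.0633, not called), above both controls in every sorted library, and its log2 fold change turned to -0.26 under the same-median scaling. *Dusp6*, a phosphatase of ERK, was at 215 and 220.3 TPM against 171, 173, and 172 TPM, which passed the adjusted p (limma adjusted p = 0.0396) but not the size of change. Of 5 listed immediate-early genes *Klf10*, a TGF-β-induced factor, rose from 25.6 and 21.9 TPM to 38.1, 31.9, and 33.6 TPM (limma adjusted p = 0.0472), and *Ier2* fell from 101 and 96.9 TPM to 69.7, 75.4, and 63.8 TPM (limma adjusted p = 0.0366). *Klf10* turned to -0.32 under the same scaling.

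**Figure D4:**
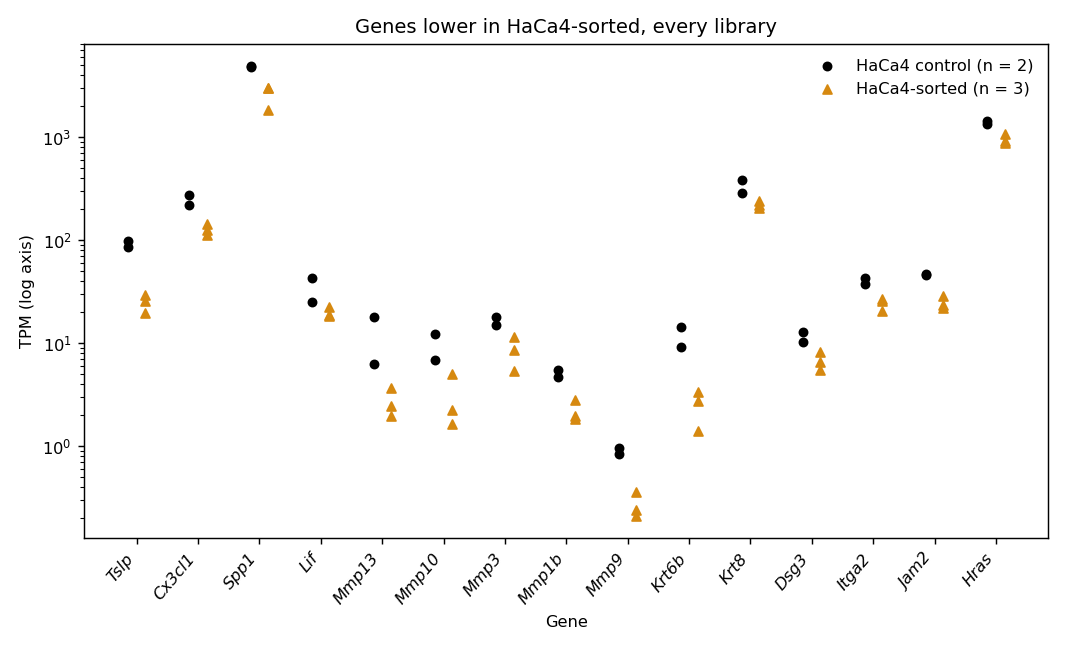
TPM (log axis) of 15 genes lower in HaCa4-sorted, with black circles for the 2 HaCa4 control libraries and orange triangles for the 3 HaCa4-sorted libraries. In each gene the circles lie above all triangles, from *Spp1* at the top to *Mmp9* under 1 TPM.

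Epithelial genes were rare among the 290, with 4 of 59 present. Of 12 markers of keratinocytes 2, *Krt6b* and *Dsg3*, had values, so that the label of the cells could be checked on these alone. *Krt6b*, a keratin of stressed and hyperproliferative epidermis, fell to 3.31, 1.40, and 2.76 TPM after co-culture against 14.3 and 9.09 TPM in HaCa4 control, a log2 difference of -1.87 (SE 0.43, limma adjusted p = 0.0366). It lies on chromosome 15 from 101676023 to 101680293 (GRCm38.p6). *Krt8*, a keratin of simple epithelia that carcinomas often express, fell from 284 and 380.4 TPM to 220.1, 205, and 238 TPM (limma adjusted p = 0.0391). *Krt19* went the other way, rising from 10.03 and 10.3 TPM to 16.6, 18.5, and 29.3 TPM (limma adjusted p = 0.0441) with replicate 3 highest. *Dsg3* (desmoglein 3, a desmosomal cadherin) was at 12.7 and 10.2 TPM against 6.53, 8.25, and 5.43 TPM (limma adjusted p = 0.09, not called). Of the 4 genes 2 were called lower and 1 higher, beside 14.1% and 15.9% of all genes, a list too short to set against them. Other epidermal genes such as *Krt5*, *Krt14*, and *Trp63* were not analysed here. None of the lists of cell cycle, leukocyte, and fibroblast and mural genes had a member among the 290.

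*Hras*, the gene of the oncogenic mutation in this line, was among the 10 most abundant genes. It fell to 878, 1062, and 910.3 TPM after co-culture against 1337 and 1423 TPM in HaCa4 control, a log2 difference of -0.54 (SE 0.13, limma adjusted p = 0.0366). A value per gene does not separate mutated from unmutated copies. *Hras* lies on chromosome 7 from 141189934 to 141194019 (GRCm38.p6). *Akr1b3* (aldose reductase) rose from 738 and 699.7 TPM to 1455, 1052, and 1475 TPM (limma adjusted p = 0.0308), although its log2 fold change was -0.000898 under the same-median scaling. Neither gene overlapped between the groups. *Aldh3a1*, an aldehyde dehydrogenase of epithelial surfaces, was at 2441 and 3743 TPM against 1638, 2276, and 1576 TPM (limma adjusted p = 0.0548), the controls differing widely. *Tmsb4x* (thymosin β4, which binds actin monomers) was at 2209 and 2085 TPM against 1627, 1550.1, and 1739 TPM (limma adjusted p = 0.0543). *Sncg* (γ-synuclein) and *2200002D01Rik* passed the adjusted p but not the fold change, at -0.42 and -0.35 on the log2 scale.

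Of the other large falls, *Tcim*, a small regulator linked to Wnt signalling, fell from 56.7 and 50.5 TPM to 15.6, 26.8, and 18.7 TPM (limma adjusted p = 0.0308). *Sema7a*, a membrane-anchored semaphorin that binds integrins, fell from 13.7 and 20.1 TPM to 9.19, 4.19, and 6.28 TPM (limma adjusted p = 0.0447). *Padi2*, which converts arginine to citrulline in proteins, fell from 20.8 and 24.5 TPM to 11.1, 11.1, and 8.99 TPM (limma adjusted p = 0.0308). The groups did not overlap in any of these. *Sox15*, a transcription factor of epidermis, fell by 1.02 on the log2 scale (limma adjusted p = 0.0475), *Mgll* (monoacylglycerol lipase) by 1.01 (limma adjusted p = 0.0308), and *Palmd* (palmdelphin) by 1.15 (limma adjusted p = 0.0424). *Tnip3*, an inhibitor of NF-κB signalling, fell from 2.84 and 1.85 TPM to 0.60, 0.23, and 0.50 TPM (limma adjusted p = 0.0491). Among the rises, *Dlx2*, a homeobox factor, went to 22.4, 11.2, and 21.6 TPM after co-culture against 4.92 and 3.33 TPM in HaCa4 control, a log2 difference of 1.88 (SE 0.38, limma adjusted p = 0.0308), with replicates 1 and 3 at nearly the same level and replicate 2 lower, the order also seen in *Il11* and *Id2*.

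Growth factors and receptors of vessels held 11 of 69 genes, 10 of them higher and highest in sorted replicate 2, and 1 was called higher (9.09%, against 15.9% of all genes). This was *Adm* (adrenomedullin, a peptide that acts on lymphatic and blood vessels), at 1.67 and 1.03 TPM in HaCa4 control against 5.77, 16.5, and 7.66 TPM in HaCa4-sorted. *Ednra*, the endothelin A receptor, was the one lower member, at 4.69 and 5.29 TPM against 2.34, 2.84, and 2.99 TPM (limma adjusted p = 0.127). *Robo4*, an endothelial guidance receptor, was listed at 0 in HaCa4 control and reached 0.27, 5.85, and 2.90 TPM (limma adjusted p = 0.0878). Of hypoxia and glycolysis genes only *Adm* and *Egln3* were listed, and they moved in opposite directions. *Egln3*, a prolyl hydroxylase that is itself a target of HIF, fell from 67.95 and 81.7 TPM to 42.8, 38.7, and 55.2 TPM (limma adjusted p = 0.0386).

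A total of 23 genes had values in both cell lines, so the change in HaCa4 cells could be set against the change in LECs, with limma fitted to the 11 libraries and an interaction of cell line and culture. The changes differed in 19 of them (82.6%), 10 with a change above that of LECs and 9 with one below. In 16 of the 23 genes the directions were opposite. The HaCa4 list was already split by its own contrast, so these p-values reuse values that may have placed the genes in it. The share is therefore a description of the 23 genes. *Id2* was raised in HaCa4-sorted and was lower in LEC-sorted (47.7 to 59.4 TPM) than in LEC control (98.9 to 149 TPM), a difference between the log2 changes of 2.40 (SE 0.41, limma adjusted p = 0.000859). *Mmp13* and *Mmp3* were lower in HaCa4-sorted and higher in LEC-sorted, with differences of -3.67 and -3.26. *Ikbke*, an IκB kinase-related kinase, fell in HaCa4-sorted from 59.2 and 39.6 TPM to 26.8, 30.4, and 31.3 TPM and differed from LECs by -1.93 (limma adjusted p = 0.00196). *Krt8* was listed at 0 in the 3 LEC controls and at 0.19, 2.19, and 0.89 TPM in LEC-sorted. For *Slco4a1*, *Akr1b3*, *Fosl2*, and *Selp*, which were higher in both sorted populations, the difference did not pass the test.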

How the data were processed

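Bulk RNA of 2 HaCa4 control and 3 HaCa4-sorted libraries was sequenced, with 3 LEC control and 3 LEC-sorted libraries beside them. Reads were filtered with SOAPnuke and aligned to GRCm38.p6 with HISAT, listed as HISAT2 2.0.4 in the submitters' processing notes. TPM with 2 decimals was deposited by the authors for each library, in a separate table per library, and the tool that gave TPM is not given in the sources used here. The study called genes with DESeq2 on counts, whereas TPM is not a count, and limma 3.58.1 in R 4.3.3 was used on log2(TPM + 1), so that fold changes of low genes are understated. The test was two-sided, with the study's thresholds and no rescaling, because 290 selected genes give no unbiased scaling factor. The depth is unknown, and precision rests on the spread between libraries. Groups followed the titles, and the second HaCa4 control, whose values carry the number 3, kept its label, 2. No libraries were identical, with at most 5 equal values above 0 in a pair.

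The members, the 15 gene lists, and the tests were chosen with earlier results of these data known. Named genes were the 12 largest rises and 12 largest falls among called genes without overlap, all members of a list with up to 8 listed genes, otherwise the 5 with the largest change and the 5 with the highest mean TPM, the 10 most abundant genes, and genes of both cell lines. *Stat2*, *Irf9*, *Ifit3*, *Ifi44*, *Plscr1*, *Gm14308*, *Mmp1b*, *Mmp9*, *Lama4*, *Loxl2*, and the genes named for their copies or in the closing observations were chosen after their values were seen. The fits were tested on simulated data. Values of some genes are not reported here. Coordinates (285 of 290 genes) and promoters came from RefSeq tables of GRCm38.p6. Alternatives were pseudocounts of 0.1 and 5, filters at 1 TPM, scaling to the same median, no trend, replicate blocks, and leaving out each library, and, chosen after seeing the data, leaving out genes under 0.5 TPM in both controls. Tables and plots used Python 3.11.15, pandas 2.3.3, and matplotlib 3.10.9.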

Additional observations from a re-analysis of the deposited data

Results flagged for a closer look

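In 19 of the 23 genes with values in both cell lines, the change on co-culture differed between HaCa4 cells and LECs by the interaction term in limma (adjusted p of 0.05 or less over the 23 genes). The HaCa4 list was already split by its own contrast, and the LEC list may have been selected on its own contrast as well. This count therefore describes the 23 genes and is not independent of the lists. The difference, given as the log2 change in HaCa4 cells minus that in LECs, was positive in 10 genes, at 2.91 for *Ceacam1*, 2.49 for *Mest*, 2.4 for *Id2*, 2.09 for *Kcnf1*, 1.99 for *Timp3*, 1.76 for *Gas6*, 1.5 for *Kdr*, 1.16 for *Sncg*, 1.16 for *Sfrp1*, and 1.13 for *Adm*. It was negative in 9 genes, at -3.67 for *Mmp13*, -3.29 for *Cxcl3*, -3.26 for *Mmp3*, -1.93 for *Ikbke*, -1.67 for *Lif*, -1.52 for *Krt8*, -1.45 for *Tnfrsf9*, -1.32 for *Micall2*, and -1.28 for *Lrig1*. *Kdr*, *Gas6*, *Sfrp1*, *Mest*, and *Timp3*, all with a positive difference, were under 2 TPM in HaCa4 control, and their excess over the control mean in HaCa4-sorted stood at 1.91% or less of the mean in LEC-sorted, as given above. *Adm* and *Ceacam1*, also with a positive difference and under 2 TPM there, went beyond that share. *Adm* reached 2.2% in sorted replicate 2, and *Ceacam1* stood at 126, 56.7, and 129% in sorted replicates 1 to 3.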

How the results depend on the processing

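The count of called genes depended on the settings. Of the 87 called genes, 46 higher and 41 lower, the count became 177 (120 higher) with a pseudocount of 0.1 and 33 (11 higher and 22 lower) with 5, where low genes weigh more or less by construction. It was 140 (94 lower) with the same median in every library, 138 (77 higher) without genes under 0.5 TPM in both controls, and 0 (0 higher and 0 lower) without the trend of limma. With a mean of at least 1 TPM over the controls 63 genes were called lower. The order led by sorted replicate 2 held for 52 higher genes instead of 103 with a mean of at least 1 TPM over the 5 libraries. Leaving out 1 library gave 0 to 194 called genes, 0 to 146 higher and 0 to 48 lower, 0 being reached without HaCa4 control replicate 2 and without HaCa4-sorted replicate 3. With the same median the log2 difference turned negative for *Akr1b3* (-0.000898), *Cyr61* (-0.125), *Fosl2* (-0.26), *Ifi211* (-0.0577), *Klf10* (-0.32), *Nr2f2* (-0.42), *Tinagl1* (-0.0657), and *Wisp1* (-0.0741). For *Fosl2* the change in HaCa4 cells minus that in LECs ran from -0.467 to 0.0361 when 1 library was left out. Of the 23 genes with values in both cell lines, 16 to 19 passed the interaction test when 1 library was left out, against 19. The cause of these moves was not tested. The replicate numbers were not taken to pair the libraries, since no source says what a number shares and only numbers 1 and 2 occur in both groups. Deviations from the group means correlated at 0.231 and 0.284 between libraries of the same number and at -0.284 and -0.231 between those of crossed numbers, control replicates 1 and 2 being mirror images by construction. With the replicate number as a block 115 genes were called, and 22 (14 higher and 8 lower) with the second control numbered 3. TPM keeps no depth, 2 controls leave little to estimate the spread from, and the precision of values near 0 is unknown.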

Other observations

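The genes below belong to no list of the report and were chosen after their values were seen. Those called higher had every sorted library above both controls, and those called lower had every one below. *Flnc* (filamin C, an actin crosslinker) rose from 47.9 and 46.2 TPM to 90.8, 72.1, and 82.2 TPM (limma adjusted p = 0.0308), and *Fhl1*, a LIM-domain protein, from 106 and 71.9 TPM to 137, 171, and 160.02 TPM (limma adjusted p = 0.0366). *Filip1l*, which interacts with filamin, rose from 29.9 and 16.02 TPM to 47.2, 41.6, and 46.9 TPM (limma adjusted p = 0.0386). *Tubb2a* and *Tubb2b*, near-identical β-tubulin genes whose reads cannot be split with certainty, rose from 111 and 76.02 TPM to 229, 145, and 233 TPM and from 103 and 67.98 TPM to 188, 113, and 162 TPM. The 3 filamin and tubulin genes *Flnc*, *Tubb2a*, and *Tubb2b* were lowest in sorted replicate 2, and *Fhl1* was highest there.

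*Rras2* (R-Ras2, a relative of H-Ras) rose from 175 and 161 TPM to 237, 236, and 246 TPM (limma adjusted p = 0.0308), and *Areg* (amphiregulin, a ligand of the EGF receptor) fell from 205 and 222 TPM to 165, 128, and 140.2 TPM (limma adjusted p = 0.0366). The sorted libraries of each gene lay close together. *Nfe2l2* (NRF2, the regulator of the antioxidant response) was at 289.7 and 305 TPM against 209, 228, and 199.5 TPM and *Gpx1* (glutathione peroxidase 1) at 361 and 373 TPM against 273, 258, and 283 TPM, both past the adjusted p but under 0.5 on the log2 scale. *Ggct*, an enzyme of glutathione breakdown, fell from 36.5 and 39.5 TPM to 18.9, 26.3, and 22.4 TPM (limma adjusted p = 0.0366), and *Ugt1a7c*, a glucuronosyltransferase, from 33.8 and 47.03 TPM to 25.7, 23.3, and 26.2 TPM (limma adjusted p = 0.0418). *Cpt1a*, which admits fatty acids to mitochondria, fell from 34.5 and 32.8 TPM to 26.3, 21.4, and 22.1 TPM (limma adjusted p = 0.0486), and *Acsbg1*, an acyl-CoA synthetase, from 63.3 and 64.4 TPM to 44.9, 36.7, and 41.5 TPM (limma adjusted p = 0.0308).

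*Ndn*, *Sgce*, and *Grb10* are known as imprinted genes. *Ndn* was listed at 0 in both controls and held 0.79, 5.46, and 2.84 TPM in sorted replicates 1 to 3, *Sgce* was likewise at 0 and then at 0.34, 1.89, and 1.11 TPM, and *Grb10* went from 0.02 and 0.03 TPM to 0.24, 2, and 1.25 TPM. None of these 3 was called, and all had the order of the endothelial genes, with replicate 2 highest and replicate 1 lowest, which held in 86 of the 98 genes near 0 in HaCa4 control.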
